A study of Mus musculus with 10 samples.

Results

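The interaction of genotype and cycle stage asks whether the difference between RSK2 knockout (KO) and wild-type (WT) mammary cells was the same at estrus and at diestrus. It was taken over all 10 of the 10 RNA-seq libraries as KO minus WT at estrus, less KO minus WT at diestrus, on the log2 scale. A value above 0 therefore means that KO stood higher against WT at estrus than at diestrus. Attention went to genes whose genotype difference had opposite signs at the 2 stages, or stood out at 1 stage only. The groups were 3 libraries of RSK2(+/+) mice and 3 of RSK2(-/-) mice in estrus, and 2 libraries of each genotype in diestrus. All mice were of the strain C57BL/6J and 12 weeks old. Cells were freed from the 4th mammary glands by enzyme digestion and sorted as EpCAM high, CD49f low, Sca-1+ and CD49b-, the gate of luminal cells that carry hormone receptors. The labels do not say how the allele was made, in which cells it is lost, or whether a library came from 1 mouse or a pool, so p-values measure the spread between these libraries. The titles of the KO libraries also hold the word WT, and groups follow the genotype entry. The series title names estrogen homeostasis as the aim of the work.

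RSK2, encoded by Rps6ka3, is a serine/threonine kinase that ERK1/2 activate, and it acts on transcription factors, translation factors and other kinases. In the mouse cycle, estrus follows the rise of estrogen that leads to ovulation, and diestrus is the phase in which progesterone prevails. Hormone-sensing luminal cells read both hormones through the estrogen and progesterone receptors and pass the signal on to neighbouring cells by secreted factors.

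The deposited values were normalized read counts, which added up to between 14108057 and 15307238 per library. Pearson's r between libraries ran from 0.962 to 0.981 within a group and from 0.938 to 0.979 between groups. Rps6ka3 was not lower in KO: it had 136, 128 and 137 normalized counts in WT estrus 1, 2 and 3 and 158, 156 and 164 in KO estrus 1, 2 and 3. In diestrus it had 165 and 139 counts in WT and 156 and 165 in KO. The count covers the whole gene and a disrupted transcript would be counted too, so it does not check the genotype labels. Transcripts of the gate were present in every library, with Epcam between 35421 and 52849 counts, Ly6a (Sca-1) between 10512 and 28010 and the luminal keratin gene Krt8 between 117649 and 191522. Itga2, which encodes the excluded CD49b, had 57 to 174 counts in KO estrus and 195 to 339 in the other libraries. No gene of the deposited table was at 0 in all libraries, which therefore holds for the listed markers of other cells in the table too. Summed over 11 macrophage markers the counts were 369 to 780 in WT estrus, 751 to 1115 in KO estrus, 684 to 821 in WT diestrus and 507 to 509 in KO diestrus. The 10 fibroblast markers summed to 1276 to 2151, 214 to 3332, 1006 to 2140 and 216 to 318 in the same order of groups, and the 3 of 6 erythroid markers in the table to 53 to 421, 139 to 357, 58 to 132 and 313 to 450. The 5 of 10 lymphocyte markers in the table summed to 61 to 95 in WT estrus, 139 to 190 in KO estrus, 110 to 130 in WT diestrus and 89 to 101 in KO diestrus, so KO lay above WT at estrus and below it at diestrus without overlap. The sums over 12 basal markers ran from 496 to 1369. Levels also followed transcript length differently in the libraries. Per doubling of length, the level relative to the mean of all libraries changed by -0.116, -0.0316 and -0.0765 on the log2 scale in KO estrus 1, 2 and 3, by -0.025 to 0.0348 in WT estrus, by 0.0331 and 0.0392 in WT diestrus and by 0.0577 and 0.0558 in KO diestrus. In RNA of a sorted population, fewer cells of a type and less RNA per cell cannot be told apart.

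No gene passed the test of the interaction itself, and the counts of calls at the single stages depended on which libraries shared the estimate of the spread. Of 15180 genes with a mean of at least 10 counts, limma called 0 for the interaction (0%) at an adjusted p under 0.05, with a smallest adjusted p of 0.0812. Without adjustment 2150 genes had a p under 0.05, 1013 with a value above 0 (6.67%) and 1137 below (7.49%). The interaction adds up the error of 4 groups: its median SE was 0.34, against 0.21 for the difference at estrus and 0.26 at diestrus. In the fit over all 10 libraries, 637 genes were called at estrus (4.2%) and 6 at diestrus (0.0395%). In KO 191 of the 637 were higher and 446 lower. With each stage fitted on its own libraries the order turned, with 23 calls at estrus and 98 at diestrus. A call at 1 stage without a call at the other does not show that the 2 differences differ. The count of 0 became 6 with library weights, 3 with quantile normalization, 3 without KO estrus 3 and 2 without WT estrus 2. Those genes were Osmr, Il6st, Dynlt1b, Wdfy1, Scnn1b and the predicted genes Gm8730, Gm14165 and D630003M21Rik. The unadjusted count was 1136 without KO diestrus 2, 1339 without WT diestrus 1 and 2719 without WT estrus 1. The estrus count was 67 without WT estrus 2, 67 without WT estrus 3, 73 without KO estrus 1 and between 104 and 172 without any 1 diestrus library.

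The genes called at estrus can be read in the diestrus libraries. Those libraries did not enter the estrus difference, but they entered the estimate of its spread and so the call. The genes were chosen for their estrus difference, which inflates the size of the estrus medians. A smaller diestrus median is therefore a description. The 191 genes that rose in KO at estrus, with a median log2 difference of 0.80, had a median of 0.03 at diestrus, and 117 of them lay above 0. The 446 that fell, with a median of -0.81, had a diestrus median of -0.01, with 217 above 0 and 229 below. The median of all genes tested at diestrus was -0.004. Of the genes that rose at estrus, 13 were also higher in KO and 4 lower at diestrus at an unadjusted p under 0.05, and of those that fell 36 were lower and 6 higher. As a background, 387 of all genes were higher and 512 lower at that threshold. Across all genes the 2 genotype differences had a Pearson r of 0.145, where the libraries of the 2 stages are separate but share the authors' scaling and genes are not independent replicates.

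**Figure D1:**
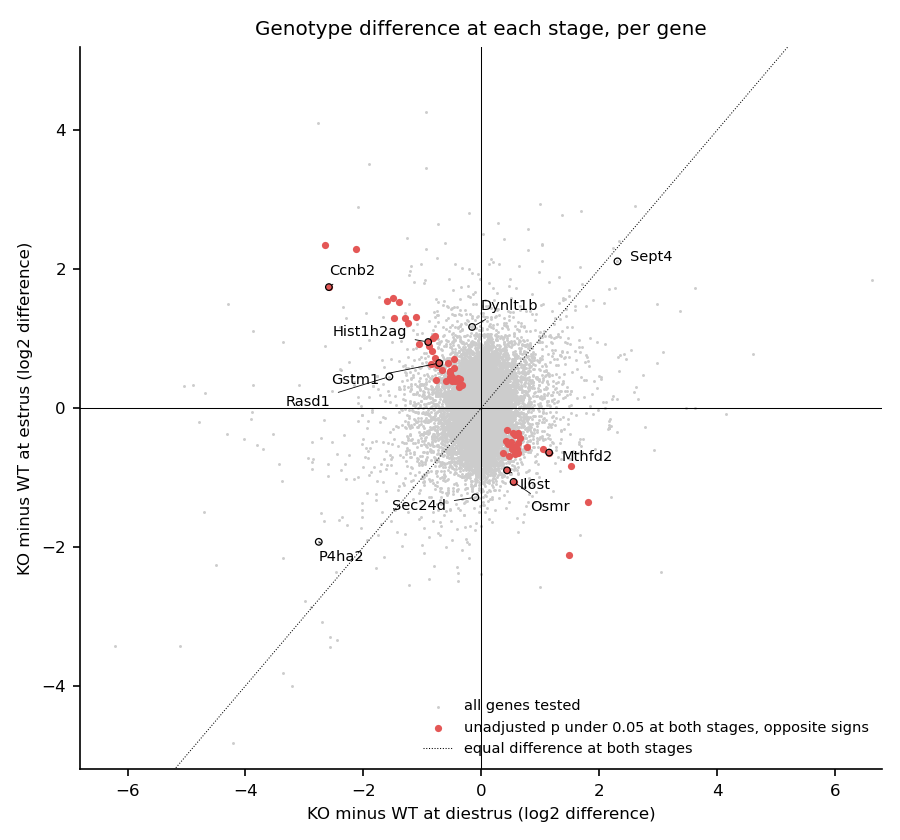
KO minus WT at estrus (vertical axis, log2) against KO minus WT at diestrus (horizontal axis, log2) for 15180 genes (grey), with the 62 genes that had an unadjusted p under 0.05 at both stages and opposite signs in red and an equal difference as a dotted line. Il6st lies at 0.44 at diestrus and -0.90 at estrus, while Sept4 lies near the dotted line at 2.31 and 2.11.

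Genes were sorted by the unadjusted p of each stage. Of all 15180, 62 (0.408%) had a p under 0.05 at both stages with opposite signs, and 205 (1.35%) at both with the same sign. Opposite signs were thus rarer than the same sign, and these counts show no excess of reversals. Another 3652 genes had such a p at estrus alone, 632 at diestrus alone and 10629 at neither. In all, 1790 genes were higher and 2129 lower in KO at estrus at that threshold, and 387 higher and 512 lower at diestrus. These p-values chose the genes, so the differences below are given as descriptions. Among the 62, 37 were higher in KO at estrus and lower at diestrus, and 25 the reverse. In 46 of the 62 the KO and WT libraries did not overlap at either stage, which over all genes held for 858 (5.65%) with opposite directions. The 62 were chosen by p-values from these same libraries, which favours genes without overlap, so the higher share among them is no separate support. At the edge of this class, the mitotic kinase gene Pbk had a larger p of 0.0498 and was inside, and Ly6c1, of the family of Sca-1, had 0.0512 and was outside. The count of 62 was 18 without KO diestrus 2, 99 without WT estrus 1, 124 without KO estrus 3, 178 with library weights and 38 after a correction of each library for transcript length and GC content, of which 24 were among the 62. The median transcript length was 1531 bases in the 37 and 4052 in the 25, against 2290 in all genes with an interaction value above 0 and 3523 in those below.

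Il6st had the smallest interaction p among the genes that were lower in KO at estrus and higher at diestrus, followed by Epb41l5 and Osmr. Il6st (ENSMUSG00000021756, GRCm38 chromosome 13, 112464070 to 112510086, + strand) encodes gp130, the chain through which all cytokines of the family signal. Osmr (ENSMUSG00000022146, chromosome 15, 6813577 to 6874969, - strand) encodes the chain that joins gp130 to bind oncostatin M. Because the 2 genes moved together, their promoter windows are printed here as RefSeq gives them for GRCm38.p6, from 250 bases before to 50 bases after the annotated start, at chr13:112463820-112464119 (+) for Il6st and chr15:6874264-6874563 (-) for Osmr. The RefSeq start of Osmr lies inside the gene span given above, so the Osmr window is within that span and does not reach its outer end.
Il6st: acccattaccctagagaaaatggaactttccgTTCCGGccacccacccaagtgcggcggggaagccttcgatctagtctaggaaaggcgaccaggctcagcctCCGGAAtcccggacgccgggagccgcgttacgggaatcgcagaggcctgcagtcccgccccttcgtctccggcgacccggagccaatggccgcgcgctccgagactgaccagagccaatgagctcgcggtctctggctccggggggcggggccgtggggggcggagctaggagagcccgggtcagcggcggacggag
Osmr: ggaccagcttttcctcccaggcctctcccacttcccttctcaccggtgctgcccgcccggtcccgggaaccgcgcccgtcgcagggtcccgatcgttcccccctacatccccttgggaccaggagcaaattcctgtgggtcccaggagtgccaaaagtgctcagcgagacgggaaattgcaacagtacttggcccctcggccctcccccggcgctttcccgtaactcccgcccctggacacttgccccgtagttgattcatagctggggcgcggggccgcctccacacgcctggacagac
Capitals mark matches to CCGGAA, the core of ETS factor sites, on either strand. Il6st held 2 and Osmr none, and 14.9% of all 32851 promoter windows held at least 1. Neither window held TTCNNNGAA, the STAT motif (8.3% of windows), TGACGTCA, the cyclic AMP response element (1.79%), or the palindromic estrogen response element, GGTCA and its reverse complement 3 bases apart (0.07%). The single arm GGTCA, which is not in capitals and is part of that element, occurred 2 times in Il6st and not in Osmr, and in 40.5% of windows. A match is a run of letters and not a measured binding site.

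In Il6st the counts were 3049, 3948 and 3276 in WT estrus 1, 2 and 3, and 1621, 2014 and 1869 in KO estrus 1, 2 and 3. In diestrus they were 3233 and 3387 in WT and 4414 and 4550 in KO. The WT libraries of both stages thus lay at one level, with the KO libraries all below them at estrus and all above them at diestrus. The limma difference was -0.90 ± 0.14 at estrus (SE, adjusted p = 0.0165) and 0.44 ± 0.17 at diestrus (adjusted p = 0.732). Their contrast, the interaction, was -1.33 ± 0.22 (unadjusted p = 5.58e-05, adjusted p = 0.156), and over all alternatives its adjusted p ran from 0.0367 to 0.509.

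Osmr showed the same order. Its counts were 2487, 3427 and 3164 in WT estrus, 1189, 1206 and 2058 in KO estrus, 2827 and 2908 in WT diestrus and 4074 and 4318 in KO diestrus. Every KO estrus library was below, and every KO diestrus library above, all 5 WT libraries. The interaction was -1.61 ± 0.32 (adjusted p = 0.165), from a difference of -1.06 ± 0.20 at estrus and 0.55 ± 0.25 at diestrus. With the length and GC trend removed it was -1.35, and that of Il6st -1.14.

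Other receptor, ligand and kinase genes of this pathway, chosen after their values were seen, were not in the reversed class. Jak1, the kinase bound to gp130, had an interaction of -0.53 ± 0.24 (unadjusted p = 0.0478), from -0.51 at estrus and 0.02 at diestrus. For Jak2, Stat3, Cntfr, Lif, Lifr, Il6ra and Il11ra1 the unadjusted p of the interaction was above 0.05, with values from -0.69 for Jak2 to 0.24 for Lifr. Socs3, which encodes a feedback inhibitor of gp130, stood the other way: 6471, 8518 and 5893 counts in WT estrus, 7782, 13225 and 13392 in KO estrus, 7975 and 9758 in WT diestrus and 5183 and 6580 in KO diestrus. WT and KO overlapped at estrus, KO estrus 1 lying below WT estrus 2, and did not at diestrus. The interaction of Socs3 was 1.29 ± 0.36 (adjusted p = 0.256). Pim1, a kinase gene induced by STAT factors, was in the reversed class with 1.78 ± 0.51 and was also picked after its values were seen.

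Epb41l5, which encodes a polarity protein of the cell cortex, had 1008, 1065 and 1118 counts in WT estrus and 716, 835 and 715 in KO estrus. The diestrus counts were 995 and 954 in WT and 1305 and 1482 in KO. As for Il6st, all 5 WT libraries lay between the KO libraries of the 2 stages. The interaction was -1.01 ± 0.20 (adjusted p = 0.165), from -0.50 at estrus and 0.51 at diestrus. With the length and GC trend removed it was -0.66, from -0.21 at estrus and 0.46 at diestrus. Further genes of this direction, picked after their values were seen, were the junction genes Ocln (-1.17 ± 0.27) and Cldn12 (-1.12 ± 0.33), the vesicle traffic gene Rab31 (-0.95 ± 0.20), the cortex protein gene Frmd6 (-1.02 ± 0.21), the RNA sensor gene Ddx58 (-1.24 ± 0.31) and the chemokine gene Cxcl16 (-1.19 ± 0.33). Of these, Cldn12 overlapped between KO and WT at estrus. Clca3a1 had -2.36 ± 0.50 and its neighbour Clca3a2, of the same family of chloride channel regulators, -2.33 ± 0.54. Clca3a2 had 2948 to 6921 counts in WT estrus, 2538 to 3221 in KO estrus, 3676 and 5786 in WT diestrus and 23486 and 9613 in KO diestrus, so both KO diestrus libraries stood above all others, KO diestrus 1 the furthest. The 2 neighbours may share reads.

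Mthfd2, Gars and Sesn2, picked after their values were seen, were also in this class. Mthfd2, an enzyme of mitochondrial folate metabolism and a target of ATF4, had 480, 209 and 403 counts in WT estrus and 208, 204 and 250 in KO estrus. At diestrus they were 398 and 550 in WT and 891 and 1216 in KO. The estrus groups overlapped, because WT estrus 2 was as low as the KO libraries, and the diestrus groups did not. The interaction was -1.79 ± 0.43. Gars, the glycyl-tRNA synthetase, had -0.88 ± 0.22 and Sesn2, a stress-induced inhibitor of mTORC1, -0.97 ± 0.27, both without overlap at either stage. Mthfd2 and Sesn2 are on the integrated stress response list and Gars is not. Of its 29 tested genes, 2 had an unadjusted interaction p under 0.05 above 0 (Cebpb and Stc2) and 6 below (Mthfd2, Sesn2, Psat1, Eif2ak3, Asns and Trib3), where 6.67% of all genes were above and 7.49% below, with a list median of -0.25 against -0.01 for all genes.

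**Figure D2:**
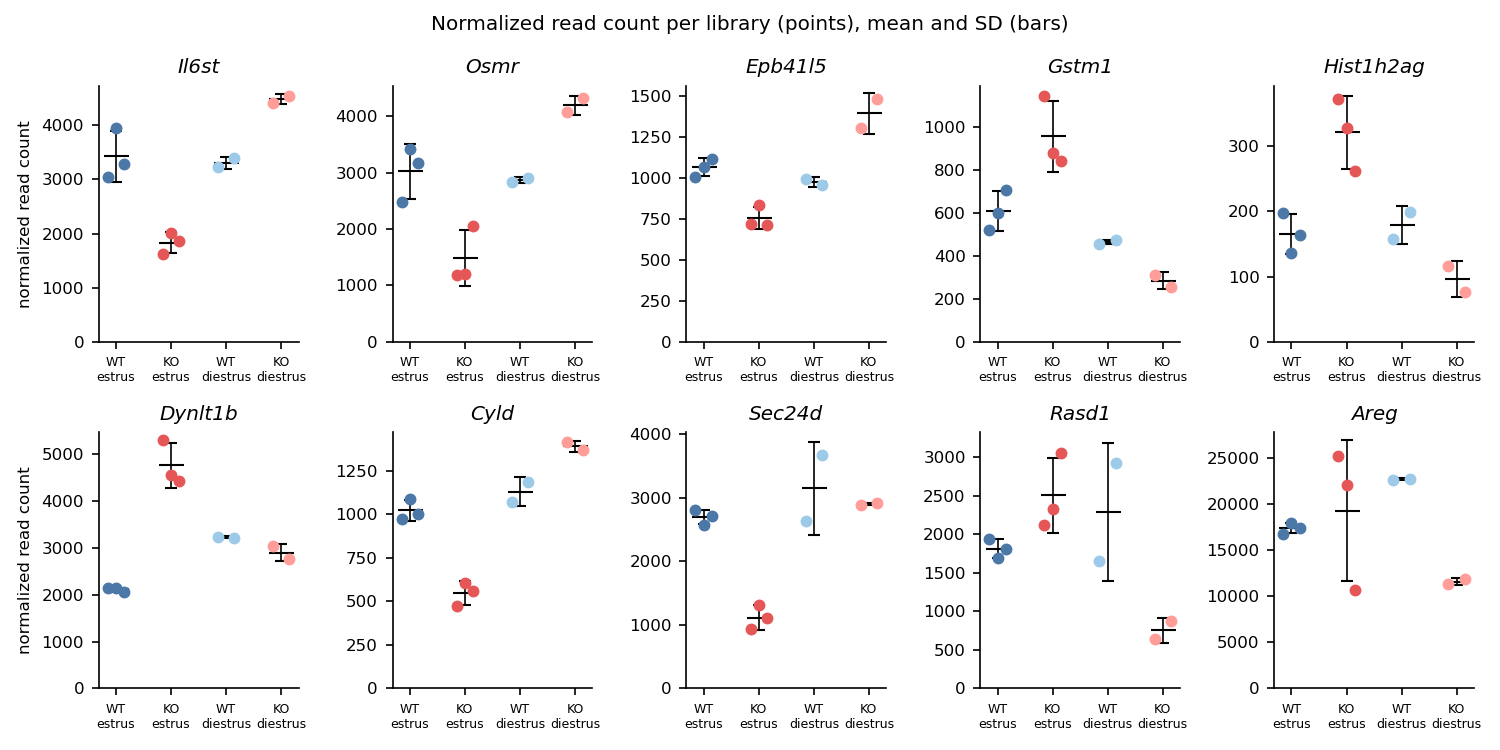
Normalized read count per library (points) of 10 genes in the 4 groups, with mean and SD (bars), on axes that start at 0. In Il6st the KO libraries lie between 1621 and 2014 at estrus and between 4414 and 4550 at diestrus, while the WT libraries of both stages lie between 3049 and 3948.

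Replication histone genes, a glutathione transferase gene and cell cycle genes were among the 37 of the other direction, higher in KO at estrus and lower at diestrus. Gstm1, which conjugates glutathione to reactive compounds, had 520, 599 and 708 counts in WT estrus and 1146, 879 and 843 in KO estrus. The diestrus libraries had 457 and 472 in WT and 313 and 256 in KO. No KO library overlapped with the WT libraries of its stage. The differences were 0.65 ± 0.17 at estrus (adjusted p = 0.0508) and -0.71 ± 0.20 at diestrus (adjusted p = 0.429), and the interaction 1.36 ± 0.26 (adjusted p = 0.165). Other glutathione transferases of the NRF2 list had values above 0 too, with Gstm4 at 0.99 ± 0.25, Mgst1 at 0.86 ± 0.26 and Gstp1 at 0.81 ± 0.26. The NRF2 targets Txnrd1 (-0.79 ± 0.25) and Hmox1 (-0.71 ± 0.29) were below 0. Of the 31 tested genes of the list, 6 were above 0 and 3 below with an unadjusted p under 0.05. Of all genes, 6.67% were above and 7.49% below at that threshold. The list median was 0.17, against -0.01 for all genes. The Gstm genes resemble each other, and how reads that fit several copies were counted is not given in the sources used here.

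Hist1h2ag, an H2A histone gene, had 197, 136 and 164 counts in WT estrus, 373, 328 and 262 in KO estrus, 158 and 199 in WT diestrus and 116 and 77 in KO diestrus. Its KO libraries lay above all WT libraries at estrus and below all of them at diestrus. The interaction was 1.85 ± 0.35 (adjusted p = 0.165), and Hist1h2ao had 1.82 ± 0.34 with the same order. The class also held Hist1h2ap, Hist1h2ab, Hist1h2ae and Hist1h4i, with 1.82, 2.42, 1.98 and 1.37. All of these but Hist1h4i, an H4 histone gene, are nearly identical H2A copies, so they may share reads and are not independent observations. Ccnb2, the mitotic cyclin B2, had 10, 34 and 22 counts in WT estrus, 75, 48 and 88 in KO estrus, 11 and 11 in WT diestrus and 1 and 1 in KO diestrus. That is near the lower end of the scale in diestrus, and its interaction of 4.33 ± 0.72 (unadjusted p = 6.64e-05, adjusted p = 0.156) depends on the added count of 1. Ccnd1, the G1 cyclin D1, had 520, 572 and 908 counts in WT estrus, 1147, 898 and 1010 in KO estrus, 500 and 583 in WT diestrus and 374 and 352 in KO diestrus. WT estrus 3 lay just above KO estrus 2, and the diestrus groups were apart. The interaction of Ccnd1 was 1.22 ± 0.31 (adjusted p = 0.237). Knstrn, Pbk, Hes6, Mrpl18 and Mtln were further members, and all genes of this paragraph but Hist1h2ag and Hist1h2ao were picked after their values were seen.

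Among genes that stood out at estrus alone, Dynlt1b and Stmn1 rose in KO and Cyld, Mgea5 and Slc35a5 fell there. Dynlt1b (chromosome 17, 6430112 to 6436296), a light chain of the dynein motor, had 2135, 2153 and 2051 counts in WT estrus and 5305, 4551 and 4434 in KO estrus. In diestrus it had 3242 and 3214 in WT and 3038 and 2767 in KO. The KO estrus libraries were the highest, the WT estrus libraries the lowest, and both diestrus groups lay between them. Its difference was 1.17 ± 0.12 at estrus (adjusted p = 0.00384) and -0.15 ± 0.15 at diestrus (adjusted p = 0.986), and the interaction of 1.32 ± 0.19 had an adjusted p of 0.0935, with 0.0325 to 0.454 over the alternatives. Dynlt1a, with an interaction of 1.07 ± 0.20, is a near-identical copy, so the 2 genes may share reads. Stmn1, which encodes a protein that destabilizes microtubules, had 76, 91 and 101 counts in WT estrus, 293, 238 and 221 in KO estrus, 76 and 43 in WT diestrus and 32 and 41 in KO diestrus. The KO estrus libraries lay above all others, and the interaction was 2.12 ± 0.40 (adjusted p = 0.165).

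Cyld, a deubiquitinase that restrains NF-kappaB signalling, had 973, 1089 and 1002 counts in WT estrus and 470, 607 and 561 in KO estrus, against 1069 and 1187 in WT diestrus and 1412 and 1366 in KO diestrus. The KO estrus libraries were the lowest of the 10 and the KO diestrus libraries the highest. It fell at estrus by 0.91 on the log2 scale (SE 0.13, adjusted p = 0.0127), with 0.30 ± 0.16 at diestrus (adjusted p = 0.885) and an interaction of -1.21 ± 0.21 (adjusted p = 0.165). Mgea5, the enzyme that removes O-GlcNAc from proteins, had an interaction of -1.08 ± 0.19, and the solute carrier gene Slc35a5 of -1.10 ± 0.21. Genes of cell adhesion, picked after their values were seen, had the same shape: the integrin genes Itgav (-1.31 ± 0.25) and Itgb6 (-1.47 ± 0.33) and the vinculin gene Vcl (-1.13 ± 0.24). Itgb6 had 738, 745 and 437 counts in WT estrus, 264, 209 and 191 in KO estrus, 656 and 668 in WT diestrus and 629 and 665 in KO diestrus. Only the KO estrus libraries stood apart, and the diestrus difference was -0.03 ± 0.25. The smallest interaction p of all genes belonged to the predicted gene Gm8730, with 150 to 246 counts in WT estrus, 1051 to 1553 in KO estrus and 187 to 236 in diestrus (interaction 2.39 ± 0.32, adjusted p = 0.0812).

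At diestrus alone, Rasd1 and Nnt were lower in KO and Lrmda and Degs1 higher, none of them past the test over all genes. Rasd1 (chromosome 11, 59963181 to 59964944), a small G protein induced by steroid hormones, had 1935, 1690 and 1810 counts in WT estrus and 2124, 2334 and 3060 in KO estrus. In diestrus it had 1652 and 2928 in WT and 639 and 871 in KO. The KO diestrus libraries lay below all others, while the WT diestrus libraries were far apart from each other. The difference was 0.45 ± 0.21 at estrus and -1.56 ± 0.26 at diestrus (adjusted p = 0.0784), and the interaction 2.01 ± 0.34 (unadjusted p = 7.19e-05, adjusted p = 0.156), from 1.60 without WT diestrus 2 to 2.42 without WT diestrus 1. Degs1, an enzyme of ceramide synthesis, had 353, 415 and 440 counts in WT estrus, 447, 460 and 445 in KO estrus, 286 and 311 in WT diestrus and 678 and 573 in KO diestrus. Its diestrus difference was 1.06 ± 0.17 (adjusted p = 0.0721) and its interaction -0.89 ± 0.22.

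In several genes of this class the WT diestrus libraries stood furthest from the other groups. Lrmda had 10 and 4 counts in WT diestrus against 30 to 96 in all other libraries, and an interaction of -3.53 ± 0.63 (adjusted p = 0.165). Nnt, the mitochondrial nicotinamide nucleotide transhydrogenase, had 530 and 617 counts in WT diestrus, 168 and 116 in KO diestrus and 154 to 303 in the 6 estrus libraries (interaction 1.92 ± 0.40). Nnt was picked after its values were seen, and it overlaps another annotated gene. C57BL/6J mice are known for a deletion within this gene, and whether the libraries carry different alleles was not tested. The histone genes Hist1h2bf and Hist1h2be had 578 and 1152, and 651 and 1318 counts in WT diestrus 1 and 2. In the other libraries Hist1h2bf had 31 to 65 and Hist1h2be 172 to 237, except for 576 and 686 in KO estrus 2. Their interactions were 5.80 ± 1.14 and 2.94 ± 0.60, and the copies may share reads.

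The 6 genes called at diestrus were read against estrus. Plac9a, Plac9b and Gm9780, overlapping or near-identical copies that may share reads, rose in KO by 2.32, 2.46 and 2.35 on the log2 scale. Plac9b had 111 and 77 counts in WT diestrus and 416 and 637 in KO diestrus, and 274 to 382 and 396 to 754 in WT and KO estrus. KO was above WT at both stages, with a difference of 0.71 ± 0.26 at estrus and an interaction of -1.75 ± 0.41 (adjusted p = 0.214). Ank, which moves pyrophosphate out of the cell, rose as well, with 58 and 58 counts in WT diestrus, 184 and 201 in KO diestrus, 43 to 58 in WT estrus and 86 to 95 in KO estrus. Its difference was 1.71 ± 0.25 at diestrus (adjusted p = 0.0421) and 0.89 ± 0.20 at estrus (adjusted p = 0.0386), so it was called at both. D630003M21Rik and the pseudogene Gm12873 fell. D630003M21Rik had 81 and 98 counts in WT diestrus and 5 and 6 in KO diestrus, against 35 to 60 and 24 to 44 in WT and KO estrus, and an interaction of 3.26 ± 0.52 (adjusted p = 0.156). The diestrus count of 6 ranged from 0, without any 1 of the diestrus libraries, to 28 without KO estrus 3, with 21 without WT estrus 1 and 1 without WT estrus 2. It was 147 with library weights and 98 in a fit of the diestrus libraries alone.

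A smaller group had the same sign at both stages but unequal sizes. Alox15, a lipoxygenase gene, had 1244, 765 and 464 counts in WT estrus, 368, 442 and 459 in KO estrus, 2367 and 1810 in WT diestrus and 536 and 493 in KO diestrus. KO was below WT at both stages, and the difference was -0.85 ± 0.28 at estrus and -2.01 ± 0.34 at diestrus, with an interaction of 1.15 ± 0.44 (adjusted p = 0.292). Etv1, an ETS transcription factor gene of the ERK feedback list, had -0.70 ± 0.20 and -1.51 ± 0.24, and Piezo2, a mechanosensitive channel gene, -0.46 ± 0.20 and -1.20 ± 0.24. Among genes that stood out at neither stage, those with the smallest interaction p were Aldh3b2 (1.12 ± 0.37), Asnsd1 (0.69 ± 0.24) and the cytochrome oxidase subunit gene Cox5a (0.56 ± 0.20) above 0, and Ttpal (-0.66 ± 0.22), Eif3j2 (-0.63 ± 0.21) and Creb5 (-1.14 ± 0.40) below.

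Genes called at estrus, most of them taken from an earlier account of these libraries, ranged from those with a like difference at diestrus to those without one. Sept4, a septin, had 66, 102 and 197 counts in WT estrus, 387, 520 and 546 in KO estrus, 64 and 43 in WT diestrus and 271 and 258 in KO diestrus. KO lay above WT at both stages, by 2.11 ± 0.33 and 2.31 ± 0.40, and the interaction was -0.20 ± 0.52. The interactions of Tmem158 (-0.12 ± 0.46), Bex1 (0.17 ± 0.51), Bnc1 (0.22 ± 0.81), Slc41a3 (0.57 ± 0.53), Gcnt1 (-0.52 ± 0.87), Atp7b (-0.62 ± 1.70), P4ha2 (0.83 ± 0.67) and Slc2a3 (1.69 ± 1.22) were also within 2 SE of 0. SEs of this size leave room for sizeable differences between stages. P4ha2, a collagen prolyl hydroxylase gene, had 1334, 839 and 2170 counts in WT estrus, 456, 559 and 172 in KO estrus, 1384 and 2318 in WT diestrus and 302 and 231 in KO diestrus. Its KO libraries lay below the WT libraries at both stages.

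Sec24d, a coat protein of vesicles that leave the endoplasmic reticulum, had 2577 to 2804 counts in WT estrus and 931 to 1315 in KO estrus, and 2633 and 3668 in WT diestrus against 2888 and 2912 in KO diestrus. The WT and KO diestrus libraries overlapped, and the interaction was -1.19 ± 0.25 (adjusted p = 0.165). Wdfy1 had 553, 1063 and 472 counts in WT estrus, 1434, 1794 and 2200 in KO estrus, 1945 and 1797 in WT diestrus and 1277 and 1256 in KO diestrus. The WT estrus libraries were the lowest, and KO lay above WT at estrus and below it at diestrus. The interaction of 2.01 ± 0.41 (adjusted p = 0.165) had an adjusted p of 0.0307 without WT estrus 2 and of up to 0.623 in other alternatives. The checkpoint kinase gene Atr (-1.46 ± 0.35), the p53 regulator Mdm2 (-0.85 ± 0.22), Eif2ak3, which encodes PERK (-0.90 ± 0.31), and Sqle of sterol synthesis (-1.07 ± 0.34) had values below 0. Cdca8 of the mitotic chromosomal passenger complex (1.86 ± 0.58), Ramp1, a receptor activity-modifying protein gene (1.68 ± 0.56), Zbtb4 (1.27 ± 0.44), Tpd52l1 (1.16 ± 0.27) and Rps20 (0.78 ± 0.27) were above 0. Myb (-0.97 ± 0.42), Trp53inp1 (-0.94 ± 0.38) and Il1rl1 (-1.76 ± 0.72) had smaller differences of the same sign at diestrus. So had Etv5 (-0.67 ± 0.38), Ccng1 (-0.64 ± 0.38) and Cenpa (0.77 ± 0.42), whose interactions were within 2 SE of 0. None of these interactions passed the test over all genes, and since the genes were chosen for their estrus difference, a smaller value at diestrus is a description.

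**Figure D3:**
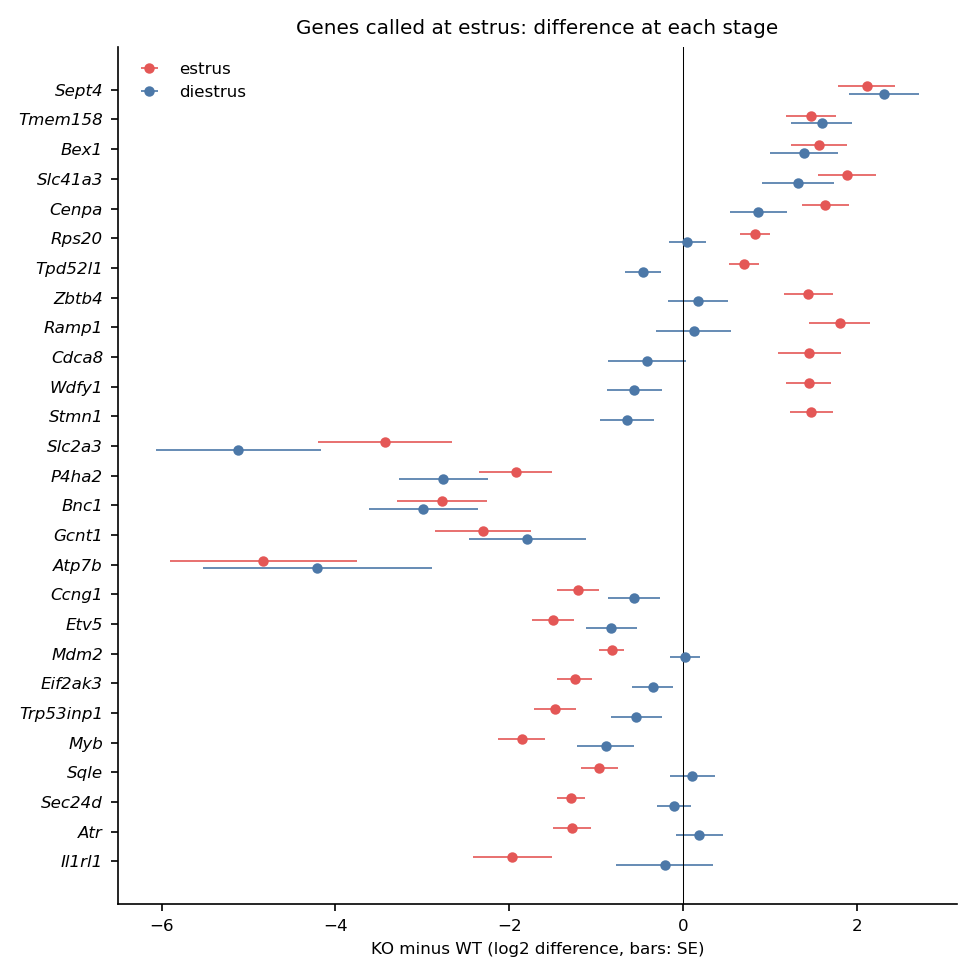
KO minus WT (log2, bars: SE) at estrus and at diestrus for 27 genes called at estrus. Sept4, Bnc1 and Atp7b have diestrus differences near those of estrus, while Sec24d, Mdm2 and Rps20 have diestrus differences of -0.10, 0.03 and 0.05.

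Hormone receptor genes and markers of the sorted population did not pass the test of the interaction, which 0 of all 15180 genes (0%) passed. The SEs of the receptor genes leave room for sizeable differences between stages. Esr1, the estrogen receptor gene, had an interaction of -0.16 ± 0.39, the progesterone receptor gene Pgr 0.06 ± 0.29, the prolactin receptor gene Prlr 0.40 ± 0.34 and the progesterone-induced Wnt4 0.44 ± 0.22 (adjusted p = 0.381). Of 22 tested hormone-sensing genes 2 had an unadjusted p under 0.05 above 0 (Gata3 and Areg) and 1 below (Myb), with a median of -0.08, where 6.67% of all genes were above and 7.49% below. Areg, the estrogen-induced ligand of the EGF receptor, had 16776, 17891 and 17417 counts in WT estrus and 25165, 22050 and 10637 in KO estrus. In diestrus it had 22596 and 22754 in WT and 11312 and 11845 in KO. The KO diestrus libraries lay at about the level of KO estrus 3, and the other KO estrus libraries above all WT estrus libraries. The difference was 0.06 ± 0.26 at estrus and -0.97 ± 0.32 at diestrus, and the interaction 1.03 ± 0.42 (unadjusted p = 0.0298, adjusted p = 0.312). Leaving out KO estrus 3 gave 1.41, and leaving out KO estrus 1 gave 0.79. Over the 22 tested estrogen-induced genes the median was 0.36, with 4 above 0 (Tpd52l1, Ccnd1, Stc2 and Areg) and 2 below (Rab31 and Myb) at an unadjusted p under 0.05, beside the same shares of all genes. Leaving out KO estrus 2 gave 0.20, and leaving out KO estrus 3 or WT estrus 2 gave 0.57. The 10 progesterone-induced genes had a median of 0.15, the 10 prolactin and STAT5 genes -0.18, the 20 ERK feedback genes -0.11, the 9 EGF family and receptor genes -0.03 and the 6 RSK and MSK kinase genes 0.11.

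Among the 41 gene lists, genes of ribosomes and of oxidative phosphorylation had the most members above 0. Of 80 tested oxidative phosphorylation genes 77 had an interaction above 0 and 47 an unadjusted p under 0.05, none of them below 0, where 6.67% of all genes were above 0 at that threshold. The list median was 0.56, from 0.43 at estrus and -0.15 at diestrus, against -0.01 for the interaction over all genes. Ndufb9, a subunit of complex I, had 2268, 2291 and 2292 counts in WT estrus, 4208, 3151 and 3029 in KO estrus, 2109 and 2035 in WT diestrus and 1838 and 1812 in KO diestrus. KO lay above WT at estrus and below it at diestrus without overlap, and the interaction was 0.77 ± 0.22. Uqcr10 of complex III had 0.83 ± 0.21. Both were picked after their values were seen. Of 81 tested ribosomal protein genes all 81 were above 0 and 36 had an unadjusted p under 0.05, with a median of 0.66 from 0.68 at estrus and 0.03 at diestrus. Of 75 mitochondrial ribosomal protein genes 68 were above 0 and 19 passed that threshold above 0, with a median of 0.33, and Mrpl18 (0.99 ± 0.23) led them. The 13 mitochondrially encoded genes had a median of 0.36 and none at that threshold.

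These lists hold short transcripts, and length moved with the interaction over all genes. The 3788 shortest transcripts had a median interaction of 0.25 and the 3787 longest -0.21, with 0.07 and -0.12 between them. After the correction for length and GC content, 20 oxidative phosphorylation, 11 ribosomal protein and 18 mitochondrial ribosomal protein genes had an unadjusted p under 0.05 above 0. Of all 15146 genes in that fit, 824 did. The medians of the 3 lists were 0.34, 0.42 and 0.30. The mean log2 level of the oxidative phosphorylation genes, relative to the mean of all libraries, was 0.07, -0.04 and -0.16 in WT estrus, 0.48, 0.21 and 0.25 in KO estrus, -0.09 and -0.17 in WT diestrus and -0.24 and -0.31 in KO diestrus. The KO libraries were thus highest at estrus and lowest at diestrus. For the ribosomal proteins it was 0.90, 0.34 and 0.03 in KO estrus 1, 2 and 3, against -0.29 to -0.09 in the other 7 libraries. Whether the length trend set the interaction of these lists was not tested beyond this removal.

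**Figure D4:**
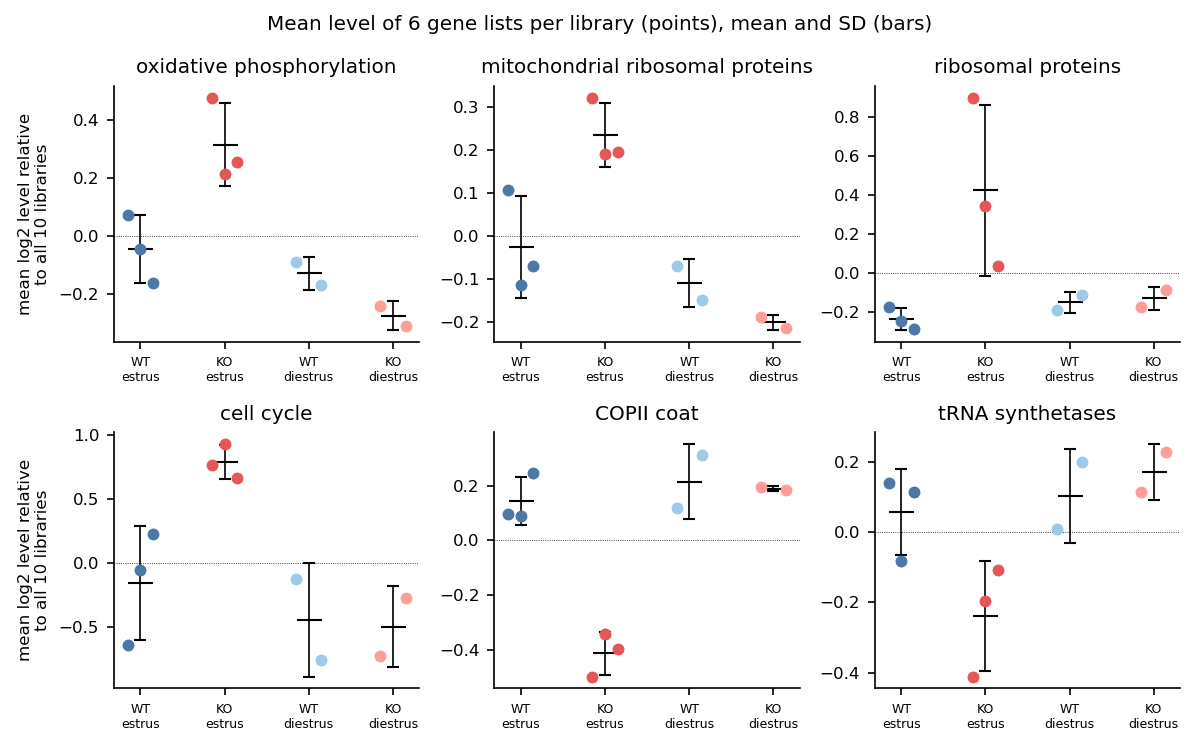
Mean log2 level per library relative to all 10 libraries (points) of 6 gene lists, with mean and SD (bars). The oxidative phosphorylation genes lie between 0.21 and 0.48 in KO estrus and between -0.31 and -0.24 in KO diestrus, and the COPII genes lie between -0.50 and -0.34 in KO estrus.

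Of 33 tested cell cycle genes 25 had an interaction above 0 and 8 below. Of these, 8 had an unadjusted p under 0.05 above 0, among them Ccnb2, Cdca8 and the proliferation marker Mki67 (2.09 ± 0.81), and 1, the replication gene Mcm4, below. Of all genes, 6.67% were above and 7.49% below at that threshold. The median of the cell cycle list was 0.77, from 0.90 at estrus and -0.02 at diestrus, and 0.20 when only genes with a mean of at least 50 were kept. It was 0.37 without WT diestrus 1 and 1.18 without KO diestrus 2. Their mean level overlapped between KO and WT at diestrus and not at estrus. The 28 immediate-early genes had a median of 0.26. Klf4, Klf2, Gadd45g and Junb, 4 of them, were above 0 at that threshold, beside the same shares of all genes. Of the 7 tested macrophage markers Cd74, H2-Ab1, C1qb and H2-Aa passed that threshold above 0. Csf1r, the receptor of macrophage growth factor, was at -0.04. C1qb was near the lower end of the scale, with 1 and 0 counts in KO diestrus 1 and 2. Cd74 had 211, 222 and 32 counts in WT estrus, 409, 436 and 215 in KO estrus, 255 and 157 in WT diestrus and 60 and 71 in KO diestrus. WT estrus 3 was low, WT and KO overlapped at estrus by 1 library, and the part of such cells in other results was not tested. Of the lymphocyte markers only Trbc2, a T cell receptor constant gene, passed the filter, and its interaction was 1.46 ± 0.35 (unadjusted p = 0.00133, adjusted p = 0.229). The part of these cells in the lists with the same order, oxidative phosphorylation and mitochondrial ribosomal proteins among them, was not tested. Markers of luminal progenitor and alveolar cells had a median of -0.36 over 10 tested genes and basal markers of -0.37 over 9.

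Genes of protein export had interaction values below 0, and so had most genes of tRNA charging. All 13 tested COPII coat genes had an interaction below 0 and 7 an unadjusted p under 0.05. Of all genes, 7.49% were below 0 and 6.67% above at that threshold. The 7 COPII genes were Sec24d, Sec23a, Sec24c, Sec24b, Sec23b, Tfg and Sar1a. Sec23a had 363, 502 and 347 counts in WT estrus, 187, 247 and 222 in KO estrus, 394 and 491 in WT diestrus and 448 and 460 in KO diestrus. The KO estrus libraries lay below all others, and the interaction was -0.92 ± 0.29. The list median was -0.51, from -0.56 at estrus and -0.03 at diestrus, and -0.44 with the length and GC trend removed. Of 20 tRNA synthetase genes 15 had a value below 0 and 5 above, and 8 were below 0 at that threshold and 0 above, Gars and Iars (-0.98 ± 0.33) among them, with a median of -0.37. Of 30 unfolded protein response genes 5 were below and 0 above, with a median of -0.36, which was -0.13 without WT diestrus 1 and -0.57 without WT diestrus 2. Of 23 cholesterol synthesis genes 7 were below and 1 above, with Sqle at -1.07 ± 0.34 among those below. Their median of -0.26 was -0.08 without KO diestrus 1 and -0.43 without KO diestrus 2. The lists of p53 targets (-0.10), DNA repair (-0.01), apoptosis (-0.21), heat shock (0.01), interferon-induced genes (0.13), fatty acid synthesis (-0.08), glycolysis (0.27), circadian clock (-0.13), Notch and Wnt (-0.20), matrix (-0.08), TGF-beta, BMP and IGF (0.20), translation factors (0.08), proteasome (0.07) and X chromosome neighbours of Rps6ka3 (-0.16) had at most 4 members below or above 0 at that threshold.

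**Figure D5:**
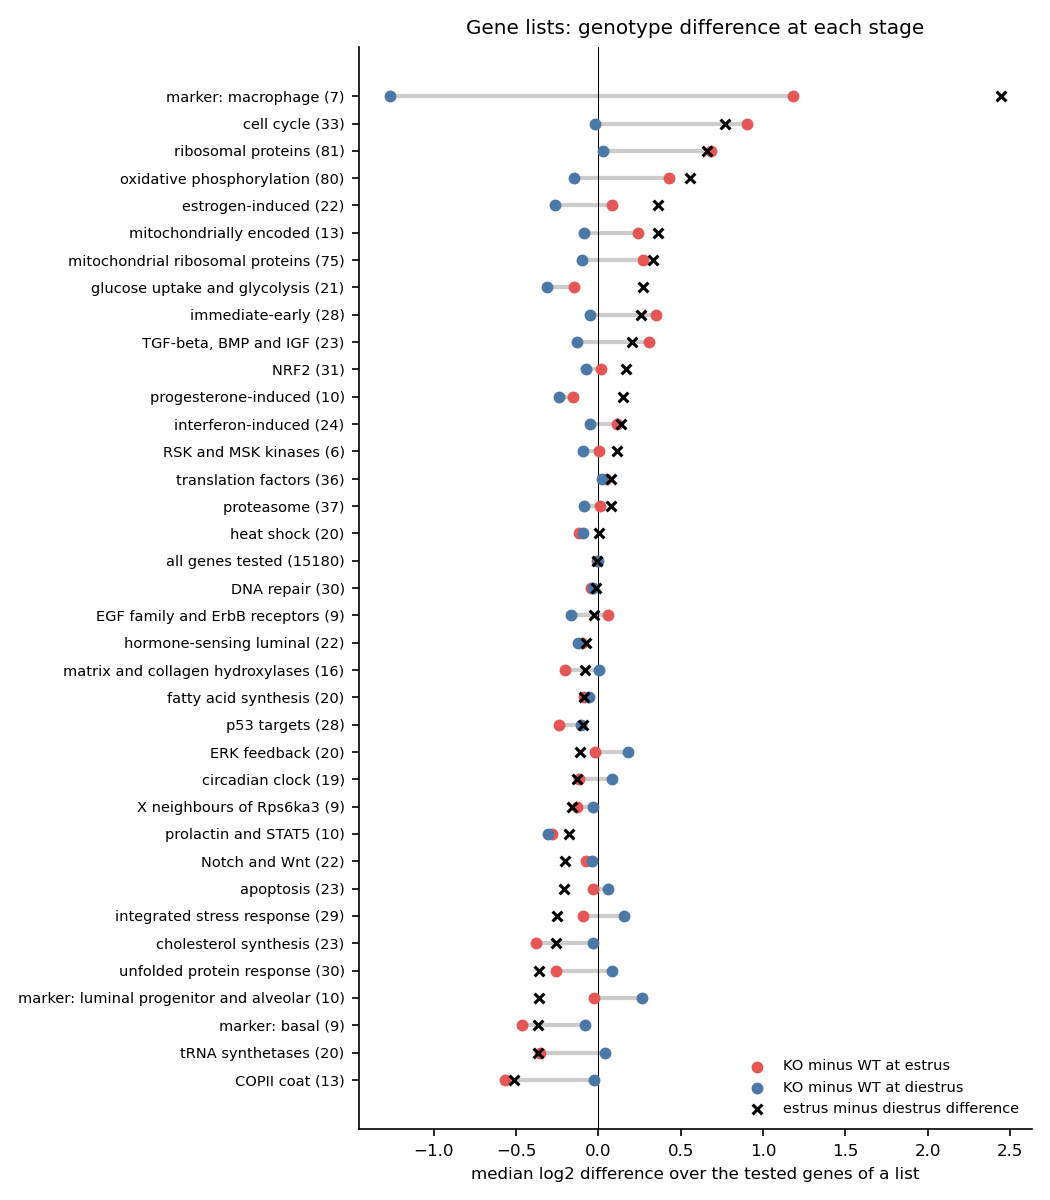
Median log2 difference over the tested genes of each list (number in brackets) for KO minus WT at estrus, KO minus WT at diestrus, and the interaction. Oxidative phosphorylation lies at 0.43, -0.15 and 0.56, and the COPII coat at -0.56, -0.03 and -0.51.

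Read by genotype, the same interaction compares the change from diestrus to estrus in WT and in KO. limma called 0 genes between the stages in WT (0%), with 588 at an unadjusted p under 0.05, and 2524 in KO (16.6%), 1165 higher and 1359 lower at estrus. The median SE was 0.24 in both genotypes, because the fit shares the spread over all groups and the genotypes have equal numbers of libraries. It therefore does not show whether the WT and KO libraries varied alike. The KO count was 151 without KO diestrus 1, 39 without KO diestrus 2 and 1331 without KO estrus 1, and the WT count at most 6 with 1 library left out. These counts do not test the difference between genotypes, which is the interaction with its 0 calls. In Il6st the stage difference was 0.04 in WT and -1.29 in KO, in Osmr 0.06 and -1.55, in Gstm1 0.38 and 1.74, and in Rasd1 -0.28 and 1.73. In Dynlt1b it was -0.61 in WT and 0.71 in KO, and in Wdfy1 -1.52 and 0.49. The first genes thus differed between stages mostly in KO, and the latter mostly in opposite directions. For oxidative phosphorylation the median stage difference was 0.09 in WT and 0.62 in KO, and for the COPII coat -0.07 and -0.62.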

How the data were processed

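RNA-seq libraries of sorted hormone-sensing luminal cells were analysed, 10 in all. The authors deposited normalized read counts rounded to whole numbers, treated here as a score and not as raw counts, since depth and size factors are not in the values. STAR, HTSeq, DESeq2 and the build mm10 are named in the submitters' processing notes, without versions. The values are not per length, so levels were compared within a gene only. Of 26312 genes, 26249 had a symbol in GENCODE M21 and 63 did not. Totals per library were 14108057 to 15307238 normalized counts, and precision was judged from the spread between libraries.

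Values were taken as log2(value + 1), which understates differences of low genes. Genes with a mean of at least 10 were kept (15180). One mean per group was fitted over all 10 libraries with limma 3.58.1 in R 4.3.3, with a trend of the spread on level and 6 residual degrees of freedom. p-values were adjusted over all tested genes by Benjamini-Hochberg, with a threshold of 0.05. The fit was tested on simulated data. Figures and tables used Python 3.11.15, pandas 2.3.3 and matplotlib 3.10.9.

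The genes named were 3 per class and direction with the smallest interaction p, a mean of at least 50 and a symbol other than those of predicted genes; 45 fixed genes, of which 44 were tested; and, per list of 41, up to 4 called members and the 2 of highest level. Others are said to be picked after their values were seen. Members and lists were chosen with earlier results of these data known. Replicate numbers were not taken as pairs (see the dependence on processing). Alternatives were the pseudocount, the filter, scaling, a length and GC correction, library weights, the spread model, a replicate block, each stage alone and each library left out.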

Additional observations from a re-analysis of the deposited data

Results flagged for a closer look

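Of the 41 gene lists, 3 had a mean level that stood in opposite orders at the 2 stages without overlap. Of all 15180 single genes, 858 (5.65%) did so. For the oxidative phosphorylation genes, each KO estrus library lay above each WT estrus library and each KO diestrus library below each WT diestrus library, and the interaction of the list's mean level was 0.50 on the log2 scale. For the mitochondrial ribosomal protein genes the same order held, with an interaction of 0.35. It also held for the lymphocyte markers, where 1 gene, Trbc2, was tested and the interaction was 1.46. The limma adjusted p of Trbc2 was 0.229, and the difference between stages was not tested for the mean levels of the other lists.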

How the results depend on the processing

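The interaction count of 0 was 3 with quantile normalization, 6 with library weights and 0 to 3 with 1 library left out; the unadjusted count of 2150 was 1136 to 2719 with 1 library left out. The stage and reversal counts below were added after seeing the data. The estrus count of 637 was 89 without a filter, 206 with the length and GC trend removed, 44 without a trend in the spread, 229 with library weights, 996 with a replicate block, 23 with the estrus libraries alone and 67 to 909 with 1 library left out. The diestrus count of 6 was 0 without a filter, 3 at a mean of at least 50, 2 without a trend in the spread, 147 with library weights, 98 with the diestrus libraries alone and 0 to 28 with 1 left out. The WT stage count of 0 was 1 with library weights, 1 with a replicate block and 0 to 6 with 1 left out. The KO stage count of 2524 was 1626 without a filter, 1489 with the length and GC trend removed, 3884 with library weights and 39 to 2894 with 1 left out. The 62 reversed genes became 38, 178 and 18 to 124 with the trend removed, library weights and 1 left out, of which 24, 50 and 10 to 48 were among the 62; these were 10 without KO diestrus 2, 21 without WT diestrus 2 and 25 without WT diestrus 1 or KO diestrus 1. Both signs were kept by all 62 where tested. As the 62 were chosen for their differences in these same libraries, the kept signs were largely set by that choice. The cause of these moves was not tested.

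Replicate numbers were not taken as pairs. Deviations of same-numbered libraries correlated at 0.187, 0.0835 and 0.0309 in estrus and -0.0363 in diestrus, where both pairs give the same value by construction. Correlations over genes do not settle whether libraries were handled in pairs or batches. With a replicate block 0 genes were called for the interaction and 2385 had an unadjusted p under 0.05. It gave 996 calls at estrus in place of 637, and 81 reversed genes in place of 62.

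The interaction kept its sign in all alternatives for 133 of 144 genes followed through them. With the length and GC trend removed Csf1r was at 0.0073, Bex1 at -0.16 and Esr1 at 0.11, and with library weights Bex1 was at -0.000155. With 1 library left out the sign turned for some settings in Lifr (-0.075 to 0.55), Il11ra1 (-0.057 to 0.31), Csf1r (-0.21 to 0.14), Sept4 (-0.56 to 0.22), Bex1 (-0.27 to 0.61), Tmem158 (-0.41 to 0.15), Bnc1 (-0.42 to 0.93), Atp7b (-1.93 to 0.64), Gcnt1 (-1.45 to 0.42), Esr1 (-0.38 to 0.13) and Pgr (-0.18 to 0.31). None of these was called.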
